A study of Arabidopsis thaliana with 6 samples.

Results

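Shoots of Arabidopsis seedlings were profiled on 6 ATH1 arrays, and the 2 arrays that the titles number as biological replicate 1 were set against the 4 arrays numbered 2 or 3. The replicate 1 arrays were chosen by title, 1 of EBE-XVE and 1 of the wild type, and genotype was kept as a covariate. EBE-XVE was line 14, in the Col-0 background. It carries the transcription factor gene EBE (AT5G61890) under XVE, a chimeric activator that acts once estradiol is added. The control was Col-0 itself, written WT here. Every array, WT included, came from 3-week-old seedlings grown under 16 h of light and 8 h of dark, moved to shaken liquid medium for 16 h, then given 2 µM β-estradiol for 45 min. There was thus no array without estradiol, and EBE-XVE was 1 line. The labels call the replicates biological and do not say what the numbers 1, 2 and 3 stand for, such as a sowing, a harvest or a hybridisation. Replicate 1 is therefore 1 number, seen once in each genotype, and the p-values below treat its 2 arrays as separate samples. An exact permutation test of 2 arrays against 4 cannot give a 2-sided p below 0.0667, so calls rest on limma's fit across all probe sets.

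The gene classes that the comparison turned on have separate roles. Pathogenesis-related proteins such as chitinases, osmotins and defensins are secreted or vacuolar proteins that act on microbes, and their transcripts are among the most responsive in a leaf. The plastid genome encodes core subunits of the photosystems, the cytochrome b6f complex, ATP synthase, an NADH dehydrogenase-like complex, the large subunit of Rubisco, ribosomal proteins and a plastid RNA polymerase, and many of these genes are transcribed in clusters. Nuclear genes encode the remaining antenna and photosystem subunits, so both genomes contribute to 1 machinery.

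The 2 replicate 1 arrays stood apart from the other 4. Deposited median log2 signal was 5.38 (EBE-XVE) and 5.47 (WT) in replicate 1 against 4.44 to 4.50 elsewhere, and quantile normalization was applied to remove that shift. After it, the SD of the difference over all probe sets was 0.489 between the 2 replicate 1 arrays, 0.731 to 0.917 between either of them and any other array, and 0.200 to 0.499 among the other 4. EBE read 8.12, 7.44 and 3.45 in EBE-XVE replicates 1, 2 and 3, and 3.73, 3.11 and 3.09 in WT. The array labelled EBE-XVE replicate 3 therefore showed no raised EBE, and results that rest on it are also given without it where that changed a call. EBE was not called between replicate 1 and the others (difference 1.65, SE 1.23, adjusted p = 0.301 in limma), and without EBE-XVE replicate 3 it was, by 0.66 (adjusted p = 0.02). Nuclear photosynthesis genes were bright, as the shoot label implies: LHCB4.1, LHCB4.2, PSAE-1, PSAN, PSBW and PSBY lay between 11.68 and 13.92 on all 6 arrays.

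Replicate 1 differed widely, and much of the difference was shared by both genotypes. With an adjusted p under 0.05 in limma and a difference of at least 2-fold, 1351 of 22746 probe sets (5.94%) were higher and 1238 (5.44%) were lower in replicate 1. At the adjusted p alone, 5165 (22.7%) were higher and 8322 (36.6%) lower, and 10898 of these 13487 calls were under 2-fold. The text below therefore counts a member as changed at 2-fold. Both replicate 1 arrays lay above all 4 others in 28.1% of all probe sets and below them in 43.1%. Of the 2589 called at 2-fold, 2578 had the replicate 1 arrays beyond the others in this way, 1905 were at least 2-fold in the same direction in each genotype by itself, and 1493 are named by 1 gene. Replicates 2 and 3 gave no such contrast over both genotypes. In limma, 0 probe sets were called between them, with 305 (1.34%) at an unadjusted p under 0.05. At least 2-fold apart were 261, against 2921 between replicate 1 and the rest. That contrast averages the genotypes, whose differences of replicate 2 from 3 correlated at -0.025, so it does not show replicates 2 and 3 to be alike. Within EBE-XVE 1010 probe sets were at least 2-fold apart between replicates 2 and 3, and within WT 55.

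The balance of higher and lower calls depended on the scaling. The median difference over all probe sets was -0.05 after quantile normalization, 0.28 in the deposited values and -0.67 after median centring. At 2-fold, the deposited values gave 4551 higher and 366 lower, and median centring gave 996 higher and 5438 lower, beside 1351 and 1238. Under all 3 scalings, 928 of the 1351 higher and 365 of the 1238 lower probe sets were called in the same direction. Every gene described below as higher or lower at 2-fold kept its sign under the 3 scalings.

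The largest increases of replicate 1 included genes of defence proteins. OSM34, which encodes an osmotin-like protein of the PR-5 family, read 8.18 in EBE-XVE and 9.63 in WT in replicate 1, against 4.26 and 2.83 in EBE-XVE and 2.94 and 2.95 in WT in replicates 2 and 3. Its difference was 5.66 (SE 0.64), or 50.6-fold (adjusted p = 0.0016 in limma), and 4.63 without WT replicate 1 or 6.65 without EBE-XVE replicate 1. ChiC, a class V chitinase gene that hydrolyses the chitin of fungal walls, read 6.94 and 6.63 in replicate 1 of EBE-XVE and WT. On the other 4 arrays ChiC lay between 2.11 and 2.77, so the groups were far apart, and the difference was 4.49 (SE 0.19, adjusted p = 7.22e-05 in limma). AT2G43590, a member of the defence list, read 8.96 and 10.15 in replicate 1, and 4.74 to 6.17 elsewhere, a difference of 4.13 (SE 0.30, adjusted p = 3.84e-04). Because whole shoots were extracted, more cells of a type and more RNA per cell cannot be told apart for any of these genes.

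**Figure D1:**
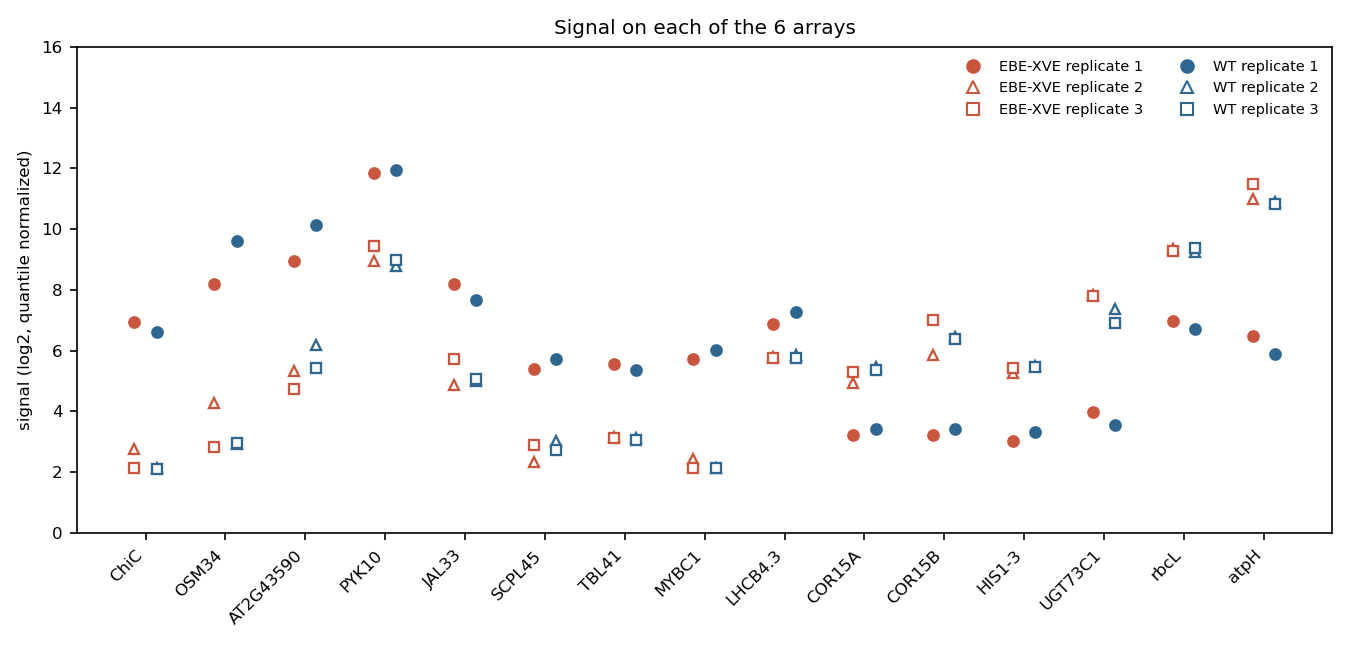
Quantile-normalized log2 signal (y axis) of 15 genes (x axis) on each of the 6 arrays, with EBE-XVE in red, WT in blue, replicate 1 filled and replicates 2 and 3 open. Both filled points lie above all open points from ChiC to LHCB4.3 and below all of them from COR15A to atpH.

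The list of defence proteins was chosen with earlier results of these data known, those of OSM34 and ChiC among them. Its count and median are therefore not independent of those results. Over the whole list, 5 of 12 measured genes were higher at 2-fold (5.94% of all probe sets were) and 0 were lower (5.44% of all). The median difference of the list was 2.36, beside -0.05 for all probe sets. The other 2 higher members were AT4G16260 (3.67, SE 1.03, adjusted p = 0.0329 in limma) and PDF1.2b, a defensin gene named after its values were seen (2.64, adjusted p = 0.0358). These were less even among the other 4 arrays. AT4G16260 read 8.18 in EBE-XVE replicate 2 and 4.61 in replicate 3, and PDF1.2b 9.94 and 7.32. Without WT replicate 1 the adjusted p of AT4G16260 was 0.173, and it was also not called without EBE-XVE replicate 1 (0.111), WT replicate 2 (0.0786) or WT replicate 3 (0.0835). The remaining members did not reach a 2-fold call. The chitinase gene CHI differed by 3.15 (adjusted p = 0.0966) and PDF1.2 by 2.08 (adjusted p = 0.163), with EBE-XVE replicate 3 the lowest array for both. The thionin gene THI2.1 divided the genotypes instead, at 2.54 to 3.28 in EBE-XVE and 6.61 to 7.59 in WT, and its replicate 1 difference was 0.11 (adjusted p = 0.832). The list's median was 1.63 without EBE-XVE replicate 3 and 2.97 without EBE-XVE replicate 2.

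Of 7 measured regulators of defence, 0 were called at 2-fold in either direction, beside 5.94% and 5.44% of all probe sets higher and lower, a share at which 0 of 7 is near the background. At the adjusted p alone 1 was called, WRKY42, which read 2.02 to 2.10 on all arrays. WRKY22, a transcription factor of flagellin signalling, differed by -2.20 (adjusted p = 0.0683) and WRKY47 by 2.24 (adjusted p = 0.0562), so the 2 largest differences ran in opposite directions. WRKY53 differed by 1.66 (adjusted p = 0.192), with 7.51 in WT replicate 1 and 6.0 in EBE-XVE replicate 1 but 6.90 in EBE-XVE replicate 2. The peroxidase list may miss genes of that family that the annotation gives by locus number alone. Among its 7 measured genes 2 were higher at 2-fold, beside 5.94% of all probe sets. They were AT5G64120 (PRX71; 2.73, SE 0.80, adjusted p = 0.0377 in limma) and AT2G41480 (PRX25; 1.33, SE 0.13, adjusted p = 9.40e-04). AT5G64120 was not called without EBE-XVE replicate 1 (adjusted p = 0.101), WT replicate 1 (0.204), WT replicate 2 (0.0894) or WT replicate 3 (0.0939). Prx37, at 9.88 in WT replicate 1 and 3.54 in EBE-XVE replicate 3, differed by 3.14 and did not pass (adjusted p = 0.0837).

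Several genes that the annotation used here gives by locus number alone rose as much as the named ones. AT1G74010 read 6.18 and 6.38 in replicate 1 and 2.23 to 2.35 elsewhere, a difference of 4.01 (SE 0.08, adjusted p = 7.21e-06 in limma). AT4G30670 read 7.03 and 7.36 in replicate 1, with EBE-XVE replicate 2 at 4.27 and the remaining arrays at 2.08 to 2.42. Its difference was 4.40 (SE 0.68, adjusted p = 0.00469). MYBC1, a gene of the MYB transcription factor family, read 5.74 and 6.04 against 2.13 to 2.43 (3.68, SE 0.14, adjusted p = 5.21e-05). AT5G44380 differed by 4.54 (SE 1.21, adjusted p = 0.028), but EBE-XVE replicate 2 read 6.94 and replicate 3 read 2.71. It was 1 of 3 genes among the 12 with the largest increases that lost the call when some single arrays were left out, beside AT3G29970 and AT4G16260. For AT5G44380 the adjusted p reached 0.135 without WT replicate 1, 0.111 without EBE-XVE replicate 1, and 0.0703 and 0.0745 without WT replicates 2 and 3. For AT3G29970 (3.92, adjusted p = 0.0307) it was 0.196 without WT replicate 1, where the difference was 2.49, 0.0611 without EBE-XVE replicate 3, and 0.0782 and 0.0825 without WT replicates 2 and 3. None of the 12 genes with the largest decreases lost the call in this way.

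Of the root markers, PYK10 was higher and the others were too dim to read. PYK10, the main β-glucosidase of the endoplasmic reticulum bodies of roots and seedlings, read 11.84 and 11.96 in replicate 1 and 8.80 to 9.44 elsewhere. The difference was 2.86 (SE 0.19), or 7.25-fold (adjusted p = 3.05e-04 in limma). EXPA7 and EXPA18, expansin genes of root hair cells, read 1.81 to 2.13 and 1.85 to 1.90 on the 6 arrays, and differed by -0.31 and 0.04. These 2 small differences passed the adjusted p, but EXPA18 changed sign in the deposited values (-0.04) and after median centring (-0.996). With 1 readable root marker, the part of root tissue in the replicate 1 differences was not tested. Jacalin-related lectins, some of which are known to associate with PYK10, held 2 higher genes of 4, beside 5.94% of all probe sets. JAL33 read 8.21 and 7.68 in replicate 1 and 4.86 to 5.74 elsewhere (2.78, SE 0.28, adjusted p = 0.00116), and JAL34 rose by 1.56 (SE 0.18, adjusted p = 0.00173). JAL22 differed by -0.09 (adjusted p = 0.797) and JAL23 by -0.62 (adjusted p = 0.484).

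The few nuclear photosynthesis genes that were measured stayed close to level, apart from LHCB4.3. Of 39 loci entered in the list of shoot markers, 4 had a named probe set, so the class as a whole was not covered. Of the 7 measured shoot markers, LHCB4.3 alone was called. It encodes a minor antenna protein of photosystem II, and it read 6.89 and 7.28 in replicate 1 against 5.76 to 5.86 elsewhere (1.29, SE 0.14, adjusted p = 0.00141 in limma). The others differed by -0.42 (PSBW) to 0.27 (LHCB4.2), with adjusted p of 0.124 and 0.544. Over all 7 markers, LHCB4.3 included, the median WT shift was 0.28 and the median EBE-XVE shift -0.33, each against its own replicates 2 and 3.

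The plastid-encoded genes were lower in replicate 1 as a class. Of 69 measured genes, 48 were lower at 2-fold (69.6%, beside 5.44% of all probe sets) and 0 were higher (5.94% of all). At the adjusted p alone, 59 were lower and 2 higher. The median difference was -2.38, and it was -2.41 in WT and -2.40 in EBE-XVE, each against its own replicates 2 and 3. No plastid gene had a call for a difference between genotypes, beside 0.545% and 0.703% of all probe sets called higher and lower. At those shares 0 of 69 is near the background, so it is not a trait of the class. The class was lower in the deposited values too, where the median was -1.74 and 42 genes were lower at 2-fold, although all probe sets had a median of 0.28 there. After median centring the median was -2.69, with 58 lower.

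Within the class the differences ran from -4.86 to 0.41. The ATP synthase genes held the lowest values and others close to 0. atpH, for the membrane ring subunit, read 6.49 and 5.91 in replicate 1 of EBE-XVE and WT and 10.84 to 11.50 elsewhere. Its difference of -4.86 (SE 0.17) was 29.0-fold (adjusted p = 3.70e-05 in limma). atpI, atpF and atpA, which lie beside it in the rps2-atpI-atpH-atpF-atpA cluster, fell by 4.63, 4.55 and 4.29, and rps2, of the same cluster, fell by 3.84. For all 5 genes both replicate 1 arrays lay below the other 4, with no overlap. atpB and atpE, which are transcribed together from another part of the genome, differed by -0.15 (adjusted p = 0.35) and -0.33 (adjusted p = 0.0669). They were among the brightest probe sets, at 13.62 to 14.27 on all arrays.

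**Figure D2:**
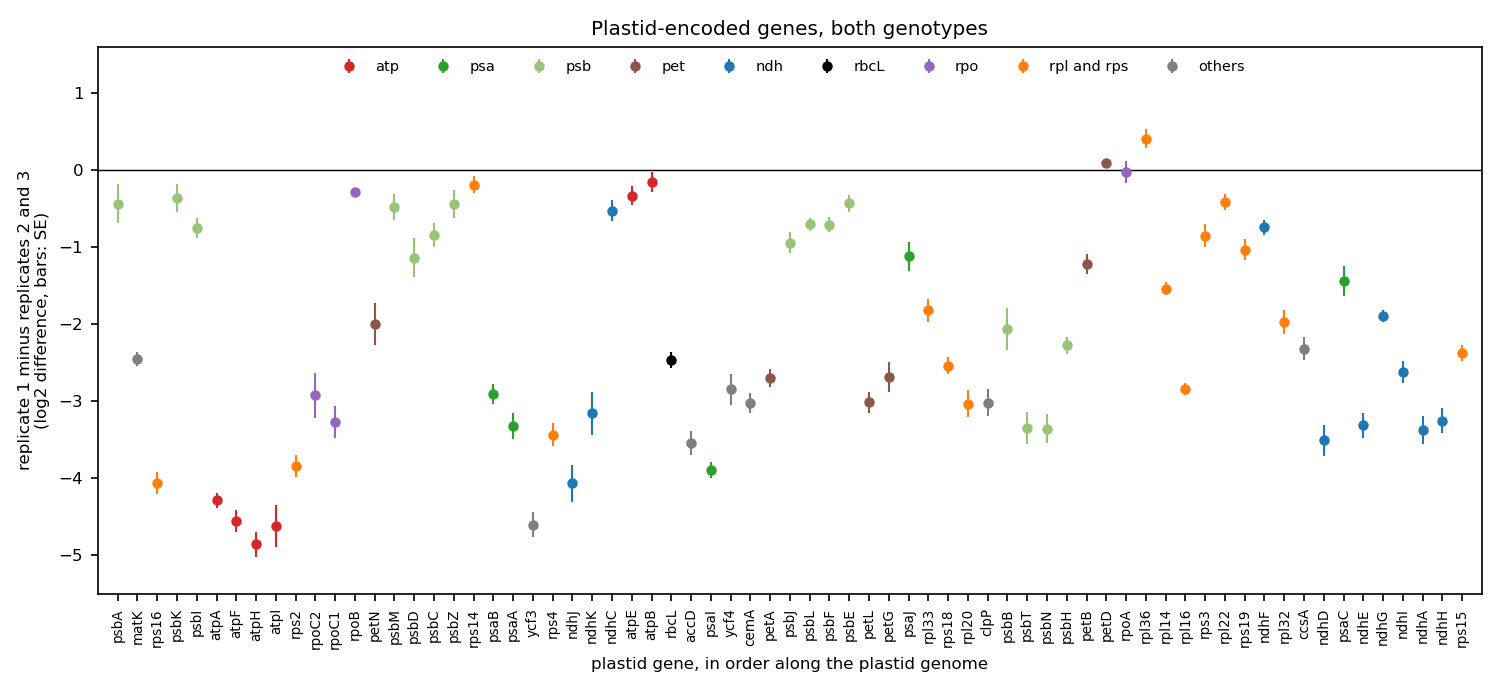
Log2 difference of replicate 1 from replicates 2 and 3 (y axis, points with SE) for the 69 plastid-encoded genes in genome order (x axis), coloured by gene group. The run from atpA to rps2 lies between -4.86 and -3.84, while atpE and atpB lie at -0.33 and -0.15. Neighbours can also differ: ndhJ, ndhK and ndhC, side by side, lie at -4.07, -3.16 and -0.53.

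Other groups of plastid genes showed a similar split. Photosystem I genes were all lower at 2-fold, 5 of 5, with psaI (-3.90), psaA (-3.33) and psaB (-2.90) lowest and psaC and psaJ at -1.44 and -1.12. psaA and psaB encode the reaction centre pair. Photosystem II genes were lower at 2-fold in 5 of 15. These were psbB, psbT, psbN and psbH, neighbours on the plastid genome, at -2.06, -3.35, -3.36 and -2.28, and psbD at -1.14. psbA, which encodes the rapidly replaced D1 protein, differed by -0.43 (adjusted p = 0.204), psbM by -0.48 (0.0661), psbZ by -0.44 (0.0958) and psbK by -0.36 (0.146). The groups overlapped for psbA, since WT replicate 1 read 8.58 and EBE-XVE replicate 2 read 8.38. The median was -2.90 for the psa genes and -0.75 for the psb genes.

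Genes of the NADH dehydrogenase-like complex were lower at 2-fold in 8 of 10. ndhJ fell by 4.07 (SE 0.24), ndhK by 3.16 and ndhC by 0.53, although the 3 genes lie side by side. Their signals differed as well: ndhC read 11.57 to 12.51 on the 6 arrays, ndhJ 3.58 to 8.25 and ndhK 2.26 to 5.94. The other member not at 2-fold was ndhF (-0.74). Of 6 cytochrome b6f genes, 5 were lower at 2-fold, from petL (-3.02) to petB (-1.22). The petD probe set was called 0.09 higher at a signal of 2.03 to 2.12, near the dim end of the array, and it was lower after median centring (-0.89). rbcL, which encodes the large subunit of Rubisco, read 6.98 and 6.72 in replicate 1 and 9.25 to 9.38 elsewhere, and fell by 2.46 (SE 0.10, adjusted p = 7.38e-05 in limma).

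The plastid genes of transcription and translation were also uneven. Of 4 RNA polymerase genes, rpoC1 and rpoC2 fell by 3.27 and 2.92. rpoA, on the other hand, was at 12.46 to 12.80 on all arrays and differed by -0.03 (adjusted p = 0.878). rpoB differed by -0.28 at 2.98 to 3.37. Of 15 ribosomal protein genes 11 were lower at 2-fold, led by rps16 (-4.07), rps2 (-3.84) and rps4 (-3.44). rpl36 was higher by 0.41 (SE 0.12, adjusted p = 0.0414), with 12.26 and 12.31 in replicate 1 and 11.78 to 12.09 elsewhere, but its difference was -0.12 after median centring. rpl14 and rpl16 fell by 1.54 and 2.84. All 7 genes outside these groups were lower, from ycf3 (-4.61), an assembly factor of photosystem I, to ccsA (-2.32).

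Several mitochondrial transcripts and the 25S ribosomal RNA control were lower as well. Of 16 mitochondrion-encoded genes, 8 were lower at 2-fold and 1 was higher (5.44% and 5.94% of all), with a median of -0.80. cox2, a cytochrome c oxidase subunit gene, read 4.11 and 3.98 in replicate 1 and 6.36 to 6.77 elsewhere (-2.47, SE 0.14, adjusted p = 2.05e-04 in limma). ccb206 and nad4 fell by 2.46 and 2.14. nad7, which encodes a subunit of complex I, read 6.89 and 6.82 against 4.82 to 4.88, the 1 rise at 2-fold (2.01, adjusted p = 2.68e-04, named after its values were seen). The 7 probe sets of nad1 ranged from -2.34 to 0.13, so the result for a mitochondrial gene depended on the probe set. By chromosome, 4.55% to 6.05% of named probe sets on chromosomes 1 to 5 were lower at 2-fold, beside 69.6% of the plastid and 47.8% (11 of 23) of the mitochondrial probe sets. The manufacturer's control for 25S ribosomal RNA, in the deposited values, was 7.0 and 5.74 in replicate 1 and 10.10 to 11.05 elsewhere. That for 5S ribosomal RNA was dim, at 3.11 and 3.01 in replicate 1 and 3.07 to 3.59 elsewhere. Controls for an actin transcript, in the same values, were 12.28 and 12.18 against 10.81 to 10.90 at its 5′ part, 12.51 and 12.44 against 12.07 to 12.27 in its middle, and 13.33 and 13.36 against 12.47 to 12.70 at its 3′ part. GAPDH controls were 13.68 and 13.41 against 12.57 to 12.90 at the 5′ part, and 13.31 and 13.03 against 12.59 to 12.98 at the 3′ part. Ubiquitin controls were 13.48 and 13.48 against 12.89 to 13.15 at the 5′ part, and 12.78 and 12.93 against 12.29 to 12.57 at the 3′ part. The deposited array medians, 5.38 and 5.47 against 4.44 to 4.50, were also higher in replicate 1. The part of RNA composition or labelling in the organellar result was not tested.

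Among nuclear probe sets of 1 named gene, 3 given by locus number alone fell as far as the plastid genes. Probe sets with no name, which reached -7.54, were not ranked. AT5G16980 read 3.80 and 3.48 in replicate 1 and 8.47 to 10.30 elsewhere, a difference of -5.43 (SE 0.53, adjusted p = 0.00103 in limma). AT2G47890 read 3.08 on both replicate 1 arrays and 7.70 to 8.92 elsewhere (-5.08, SE 0.38, adjusted p = 4.34e-04). AT1G73120 fell by 4.12 (SE 0.28, adjusted p = 3.33e-04). In each of the 3, both replicate 1 arrays lay below 4 and no other array did.

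Of 13 genes in the list of water deficit and cold, 3 were lower and 0 higher at 2-fold, beside 5.44% and 5.94% of all probe sets. COR15B, which encodes a plastid stroma protein that protects membranes on freezing, read 3.24 and 3.42 in replicate 1 and 5.87 to 7.0 elsewhere (-3.09, SE 0.35, adjusted p = 0.00162 in limma). Its neighbour COR15A read 3.23 and 3.42 against 4.93 to 5.46 (-1.94, SE 0.15, adjusted p = 5.26e-04). COR27 fell by 1.29 (SE 0.29, adjusted p = 0.0167), but by 0.93 without EBE-XVE replicate 1, where it was not called (adjusted p = 0.128). These were the 3 genes at 2-fold. COR47, a dehydrin gene, differed by 0.24 (adjusted p = 0.476), and the late embryogenesis abundant genes LEA, LEA18 and LEA4-5 read 2.03 to 2.78 on all arrays.

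Of 47 UDP-glycosyltransferase genes, 8 were lower (17%, beside 5.44% of all probe sets) and 2 higher at 2-fold (4.26%, beside 5.94%). UGT73C1, of a family that glucosylates small molecules such as hormones and xenobiotics, read 3.99 and 3.56 in replicate 1 and 6.92 to 7.85 elsewhere (-3.71, SE 0.18, adjusted p = 1.26e-04 in limma). UGT73B4 fell by 3.15 (SE 0.40, adjusted p = 0.00252). UGT73B5 and UGT73B1 fell by 2.53 and 2.36, with EBE-XVE replicate 3 the highest array for each (9.55 and 9.67). Without EBE-XVE replicate 1 their adjusted p was 0.152 and 0.103, and without WT replicate 1 it was 0.0531 and 0.0591. UGT73B5 was also not called without WT replicate 2 (0.0571) or WT replicate 3 (0.051). The linker histone gene HIS1-3 read 3.03 and 3.34 against 5.26 to 5.49 (-2.23, SE 0.13, adjusted p = 2.10e-04), and the β-tubulin gene TUB1 fell by 1.67 (SE 0.15, adjusted p = 7.71e-04). These were the 2 genes at 2-fold among 14 of histones and cell division, beside 5.44% of all probe sets lower.

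**Figure D3:**
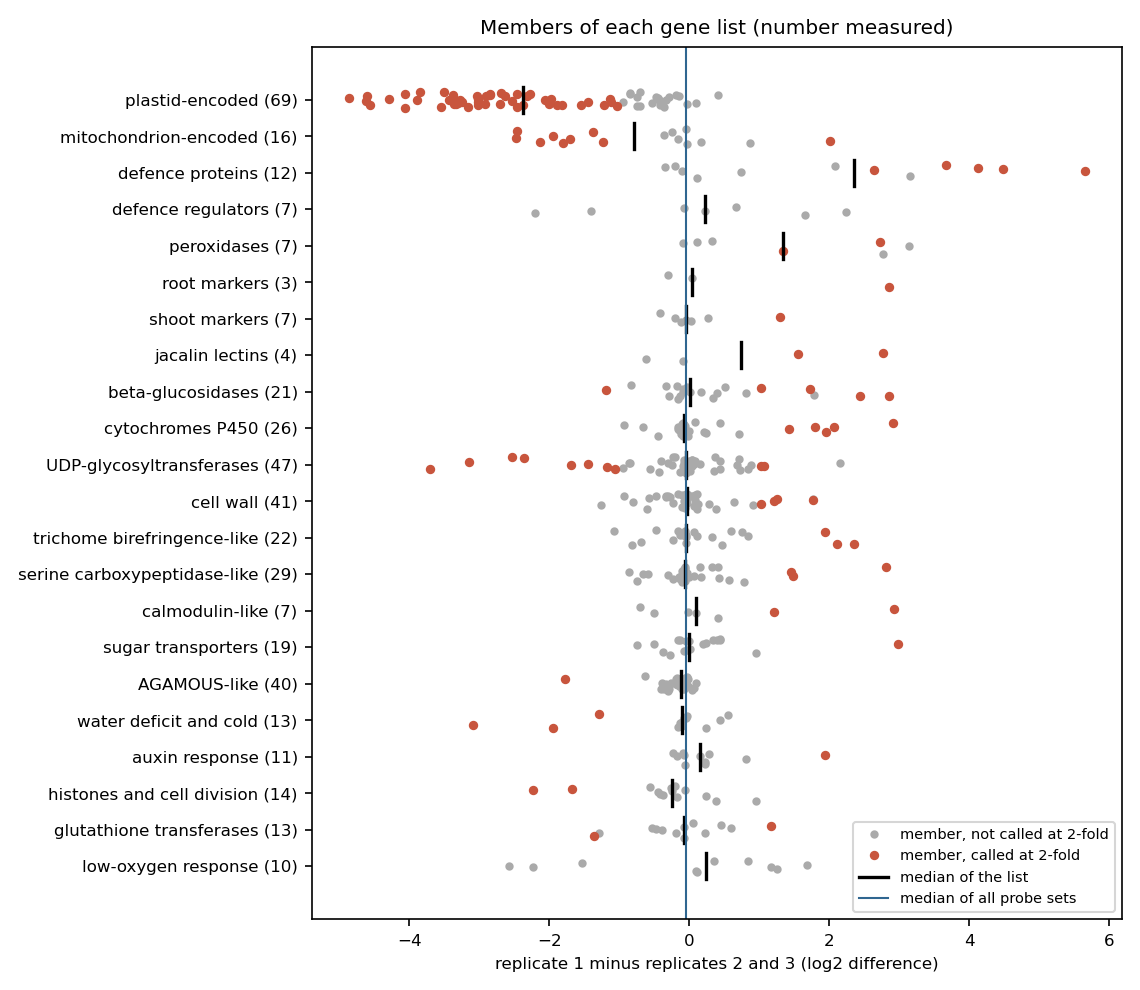
Log2 difference of replicate 1 from replicates 2 and 3 (x axis) for the measured members of 22 gene lists (y axis, number measured in brackets, 1 probe set a locus), with members called at 2-fold in red, each list's median as a black bar and the median of all probe sets as a blue line. The plastid-encoded list has its median at -2.38 and the defence proteins at 2.36, while most enzyme families lie around the median of all probe sets with a few called members.

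Cell wall genes were mixed, with 4 of 41 higher at 2-fold and 0 lower, beside 5.94% and 5.44% of all probe sets, and a median of -0.03. The median was 0.07 in the deposited values and -0.88 after median centring. PMEPCRF, a pectin methylesterase gene, read 10.02 and 9.31 in replicate 1 and 7.27 to 8.26 elsewhere (1.76, SE 0.37, adjusted p = 0.0132 in limma). Without EBE-XVE replicate 1 it differed by 1.28 and was not called (adjusted p = 0.0909). CSLD2 and CSLC6, cellulose synthase-like genes of wall polysaccharide synthesis, rose by 1.26 (SE 0.29, adjusted p = 0.0174) and 1.22 (SE 0.14, adjusted p = 0.00162). CSLD2 was not called without WT replicate 1 (0.89, adjusted p = 0.118). EXLA2, an expansin-like gene, rose by 1.03 (SE 0.12, adjusted p = 0.00212), and after median centring its difference was 0.39 and not called (adjusted p = 0.0675). Trichome birefringence-like genes, whose best studied members acetylate wall polymers, held 3 higher of 22 and 0 lower, beside the same 5.94% and 5.44%. TBL41 read 5.57 and 5.37 in replicate 1 against 3.07 to 3.15 (2.36, SE 0.08, adjusted p = 3.89e-05), and TBL35 rose by 1.94 (SE 0.11, adjusted p = 2.09e-04).

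In other enzyme and transporter families, a few members rose, and several of these counts are near the share of all probe sets (5.94% higher and 5.44% lower at 2-fold). Cytochromes P450 were higher at 2-fold in 5 of 26, beside 5.94% of all probe sets, with 0 lower and a median of -0.07. The 4 with the largest called differences belonged to the CYP71B subfamily: CYP71B23 (2.92), CYP71B24 (2.08), CYP71B22 (1.96) and CYP71B6 (1.79). CYP71B24 read 6.47 and 7.34 in replicate 1 and 4.56 to 5.23 elsewhere (SE 0.29, adjusted p = 0.00338 in limma). CYP71B23 read 7.94 in EBE-XVE replicate 2 and 4.98 in replicate 3, and it was not called without EBE-XVE replicate 1 (adjusted p = 0.184), WT replicate 1 (0.129), WT replicate 2 (0.087) or WT replicate 3 (0.0805). CYP71B22 was not called without WT replicate 1 (1.05, adjusted p = 0.0768) or WT replicate 2 (0.0587). β-Glucosidases were higher in 4 of 21 and lower in 1, with BGLU25 (2.44, SE 0.42, adjusted p = 0.00665) and BGLU15 (1.73, SE 0.26, adjusted p = 0.00443) next to PYK10, and BGLU40 lower by 1.19. Without EBE-XVE replicate 1 the difference of BGLU25 was 1.63.

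Serine carboxypeptidase-like genes were higher in 3 of 29 and lower in 0, near the 5.94% and 5.44% of all probe sets. SCPL45 read 5.40 and 5.71 in replicate 1 and 2.33 to 3.02 elsewhere (2.81, SE 0.19, adjusted p = 3.13e-04 in limma). Among the 19 genes of the sugar transporter list, which leaves SAG29 to the senescence list, 1 was higher at 2-fold. That is no more than the 5.94% of all probe sets. The higher gene was the sugar exporter gene SWEET10, at 6.51 in EBE-XVE and 4.78 in WT replicate 1 against 2.53 to 2.86. Its difference was 2.98 (SE 0.44, adjusted p = 0.0042 in limma), and 1.95 without EBE-XVE replicate 1. SAG29, a senescence-associated gene of the same family, rose by 2.94 (SE 0.60, adjusted p = 0.0121) and was not called without EBE-XVE replicate 1 (2.31, adjusted p = 0.0871). Calmodulin-like genes were higher in 2 of 7, beside 5.94% of all probe sets. CML23 rose by 1.21 (SE 0.25, adjusted p = 0.0123), and was not called without WT replicate 1 (0.80, adjusted p = 0.0681). CML41 rose by 2.93 (SE 0.78, adjusted p = 0.0283), and was not called without EBE-XVE replicate 1 (adjusted p = 0.114), WT replicate 1 (0.143), WT replicate 2 (0.0701) or WT replicate 3 (0.073). The auxin-conjugating enzyme gene GH3.3 was the 1 gene at 2-fold of 11 in the auxin list (1.94, SE 0.43, adjusted p = 0.0152), and was not called without EBE-XVE replicate 1 (1.39, adjusted p = 0.101).

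Some lists gave no gene at 2-fold or nearly none. Of 40 AGAMOUS-like genes, which encode MADS-domain factors, AGL87 fell by 1.77 (SE 0.29, adjusted p = 0.00567 in limma) and the other 39 were under 2-fold. That is 2.5% lower and 0% higher at 2-fold, beside 5.44% and 5.94% of all probe sets. At the adjusted p alone 31 of the 40 were lower, beside 36.6% of all probe sets, at a median difference of -0.12 and list medians of 2.57 to 2.70 on the 6 arrays, where signals are dim. That median was 0.03 in the deposited values. Genes of the low-oxygen response were called at 2-fold in 0 of 10 in limma, near the 5.94% higher and 5.44% lower of all probe sets. At the adjusted p alone 0 of 10 were called too, beside 59.3% of all probe sets. These 10 genes varied among the arrays in another way. Their median signal came to 8.84 in the second EBE-XVE array and 3.32 in the third, beside 5.51 to 6.39 on the other 4 arrays. The clock gene GI, the 1 measured member of its list, differed by -0.33 (adjusted p = 0.195).

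Each genotype was then compared within itself, WT replicate 1 with WT replicates 2 and 3 and EBE-XVE likewise. Each shift is thus 1 array against 2, and the 2 shifts shared no array. Their p-values came from 1 fit with a spread pooled over both genotypes, so the calls in WT and EBE-XVE are not independent. Those p-values do not measure how replicate 1 arrays vary. In WT, 1334 probe sets (5.86%) were higher and 1315 (5.78%) lower at 2-fold. In EBE-XVE, 1288 (5.66%) were higher and 1242 (5.46%) lower. At the adjusted p alone, 18.0% were higher and 33.1% lower in WT, and 18.8% and 29.2% in EBE-XVE. Of the calls at 2-fold, 783 were higher in both, which is 58.7% of the WT and 60.8% of the EBE-XVE calls. Lower in both were 777, or 59.1% and 62.6%. Only 12 were called at 2-fold in opposite directions. By size alone, 2009 probe sets were at least 2-fold in the same direction in both genotypes and 38 in opposite directions. A further 1219 were at least 2-fold in WT only and 1252 in EBE-XVE only. Across probe sets, which are not independent replicates, the shift in WT and the shift in EBE-XVE correlated at 0.763. The spread behind both came from replicates 2 and 3, which differed by genotype: 1010 probe sets were at least 2-fold apart between EBE-XVE replicates 2 and 3, and 55 between WT replicates 2 and 3.

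**Figure D4:**
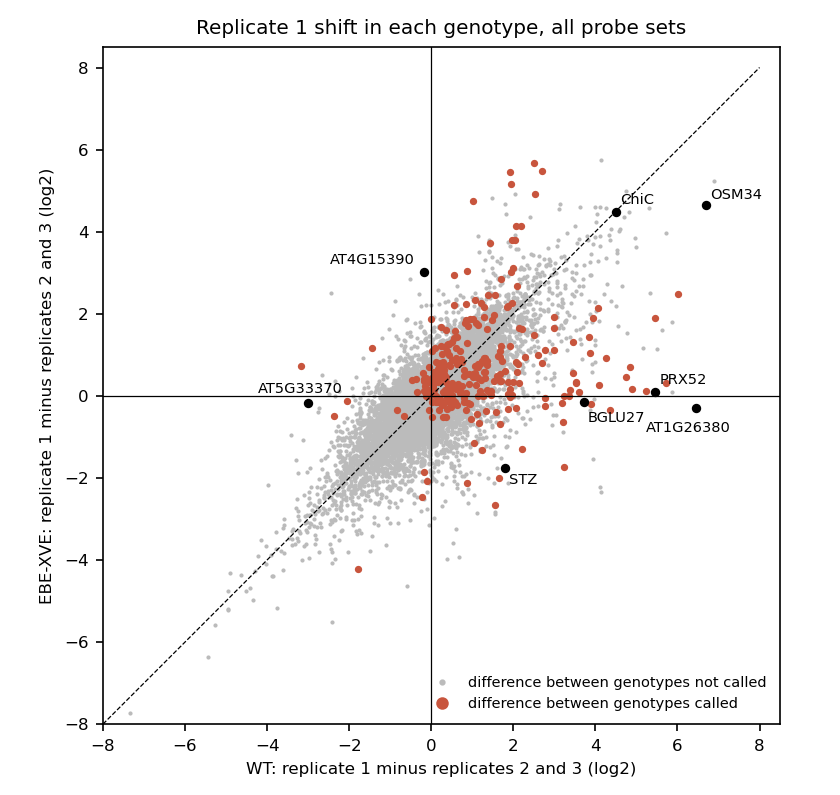
Replicate 1 shift in WT (x axis) and in EBE-XVE (y axis), both in log2 units against replicates 2 and 3 of the same genotype, for all 22746 probe sets, with equal shifts on the dashed line and probe sets called for a difference between genotypes in red and the labelled genes in black, called or not. ChiC lies on the line at 4.50 and 4.48, whereas PRX52 and BGLU27 lie near 0 in EBE-XVE at 5.45 and 3.72 in WT.

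A smaller set of genes shifted differently in the 2 genotypes. The difference tested was the EBE-XVE shift minus the WT shift. It was called positive for 124 probe sets (0.545%) and negative for 160 (0.703%), and for 32 (0.141%) and 84 (0.369%) at 2-fold. Of these 284 calls, 183 were called in the same direction in both genotypes, 53 in opposite directions, 30 in WT alone and 18 in EBE-XVE alone. The calls lay at low signal: 245 (86.3%) were below the 40th percentile of mean signal, at 3.38. With those dim probe sets left out, limma called 0 of 13648, with 1457 (10.7%) at an unadjusted p under 0.05 and a smallest adjusted p of 0.0767. Leaving out EBE-XVE replicate 2 raised the calls to 398 and 691. Without EBE-XVE replicate 3 they were 161 and 387. Without WT replicate 2 or 3 they fell to 48 and 80, or 52 and 79. A difference between genotypes in this test is also the genotype difference of pair 1 set against that of pairs 2 and 3.

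PRX52 and BGLU27 rose in WT replicate 1 and not in EBE-XVE replicate 1. PRX52, a secreted peroxidase gene, read 7.54 in WT replicate 1 and 2.08 to 2.19 on the other 5 arrays, EBE-XVE replicate 1 included. Its shift was 5.45 in WT (adjusted p = 1.62e-05 in limma) and 0.10 in EBE-XVE (adjusted p = 0.0674), and the EBE-XVE shift minus the WT shift was -5.36 (adjusted p = 1.24e-04). BGLU27, a β-glucosidase gene, read 6.42 in WT replicate 1 and 2.55 to 2.71 elsewhere. AT1G26380 read 9.10 in WT replicate 1 and 2.33 to 2.95 elsewhere, and AT4G37290 and AT1G26410 read 6.92 and 6.47 in WT replicate 1 and at most 2.65 elsewhere. In all 5 genes WT replicate 1 stood alone above the other 5 arrays. Each of these WT shifts rests on 1 array, and its spread came from replicates 2 and 3 at dim signal. The p-values therefore do not measure how replicate 1 arrays vary. THI2.2, a thionin gene, had a smaller difference of this kind (WT shift 1.36, EBE-XVE shift 0.13, adjusted p of the difference = 2.89e-04).

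STZ, AT3G15450 and AT1G22890 shifted in opposite directions. STZ, a zinc finger repressor of stress responses, read 9.65 in WT replicate 1 and 7.86 in both other WT arrays, but 7.49 in EBE-XVE replicate 1 and 9.16 and 9.31 in the others. The shift was 1.79 in WT (adjusted p = 0.00232 in limma) and -1.75 in EBE-XVE (adjusted p = 0.00252), and the adjusted p of the difference was 0.00988. WT and EBE-XVE thus stood in one order in replicate 1 and in the reverse order in replicates 2 and 3. AT3G15450 read 11.44 in WT replicate 1 and 7.70 in EBE-XVE replicate 1, with 9.67 to 9.91 elsewhere. AT1G22890 read 7.44 and 3.05, with 5.67 to 5.97 elsewhere. The lectin gene JAL23 differed in a similar way, at 7.53 and 3.96 in replicate 1 and 5.99 to 6.69 elsewhere (adjusted p of the difference = 0.0366).

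**Figure D5:**
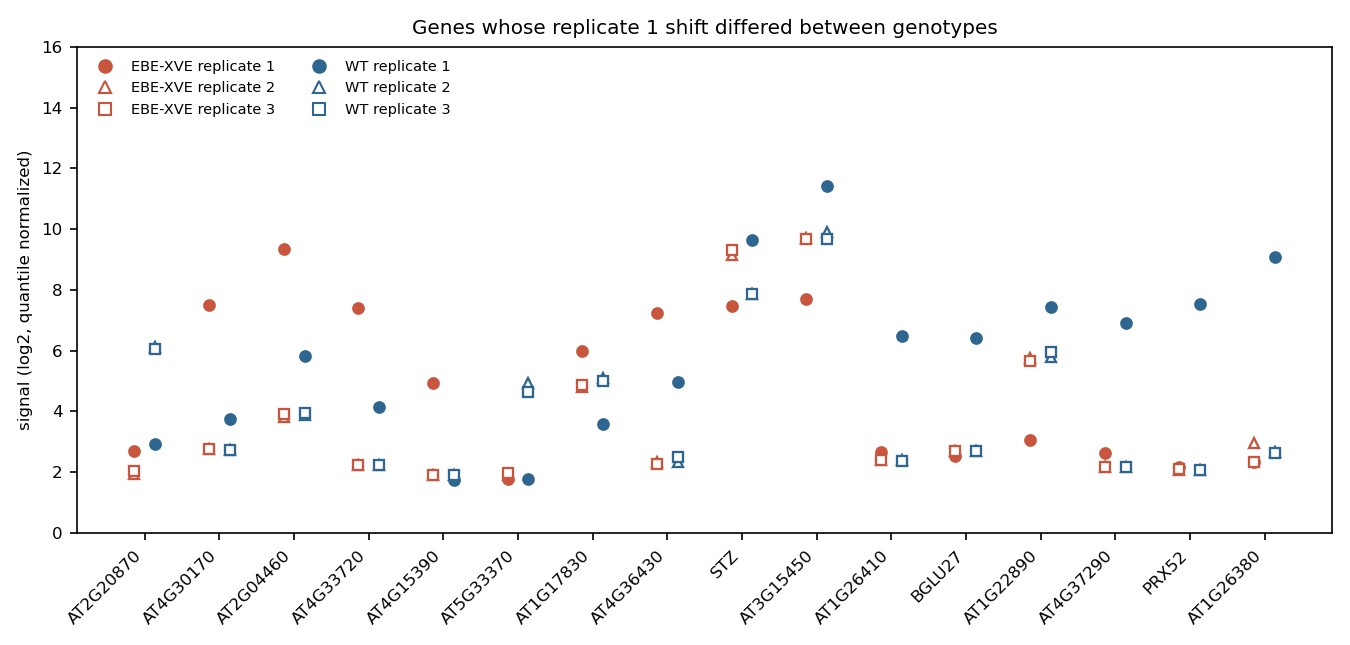
Quantile-normalized log2 signal (y axis) on each array of the 16 genes with the largest called difference between genotypes (x axis). Genes are ordered by the EBE-XVE shift minus the WT shift, from positive (left) to negative (right). EBE-XVE is in red, WT in blue, replicate 1 filled and replicates 2 and 3 open. PRX52 has 1 point at 7.54 and the other 5 at 2.08 to 2.19, and STZ has its filled points in the reverse order of its open ones.

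In the other direction, several genes rose more in EBE-XVE replicate 1. AT4G30170 read 7.51 in EBE-XVE and 3.76 in WT replicate 1, with 2.73 to 2.75 elsewhere, and AT4G33720 read 7.42 and 4.16, with 2.23 to 2.25 elsewhere. AT4G15390 read 4.94 in EBE-XVE replicate 1 and 1.74 to 1.92 on every other array. AT2G04460 and AT4G36430 rose in both genotypes, by 5.46 and 4.92 in EBE-XVE and by 1.91 and 2.54 in WT. Over both genotypes they rose by 3.68 and 3.73, and by 1.90 and 2.43 without EBE-XVE replicate 1. AT2G20870 and AT5G33370 had another pattern. They were low on all EBE-XVE arrays, at 1.76 to 2.71, and on WT replicate 1, at 2.92 and 1.76, and high in WT replicates 2 and 3, at 6.13 and 6.07 and at 4.93 and 4.63. Of the 16 genes with the largest called difference, AT2G20870, AT4G15390, PRX52, AT4G37290, BGLU27 and AT1G26410 kept the call without each of the replicate 2 and 3 arrays in turn and without the mean-variance trend. AT2G20870 lost it with dim probe sets left out (adjusted p = 0.0767), a setting that did not test the other 5. Without WT replicate 2, STZ (adjusted p = 0.13), AT3G15450 (0.101), AT1G22890 (0.158), AT1G26380 (0.118), AT2G04460 (0.209), AT4G36430 (0.133), AT4G30170 (0.0581) and AT4G33720 (0.0508) were not called. Without WT replicate 3 the same 8 were not called, AT4G33720 at an adjusted p of 0.05 and the others at 0.0592 to 0.204. AT5G33370 was not called without the trend (0.113).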

How the data were processed

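The values analysed were the authors' deposited log2 signals of 22810 probe sets on 6 ATH1 arrays. Per the submitters' processing notes GCRMA and RMA were used, with no version stated. No source used here gives the log base, and base 2 was inferred from how far the values reach. Leaving out 64 manufacturer's controls left 22746 probe sets, of which 13513 had 1 gene symbol, 503 several and 8730 none in the platform annotation, with symbols updated through a RefSeq gene table of TAIR10.1 (names only). Values were quantile normalized and fitted in R 4.3.3 with limma 3.58.1 (lmFit, eBayes with a trend, Benjamini-Hochberg over all probe sets, 2-sided, call at an adjusted p under 0.05, and 2-fold where stated) on genotype and an indicator of replicate 1, with 3 residual degrees of freedom. An interaction fit, with 2, gave the shift within each genotype and their difference. The script was tested on simulated data.

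Named genes were EBE, the 12 probe sets of 1 named gene with the largest called difference in each direction, up to 4 called genes per list (or else the 2 with the smallest p), the 8 with the largest called difference between genotypes each way, and PYK10, OSM34, ChiC, atpH, atpI, atpF and psaI, known from earlier results. Other names were chosen after their values were seen. Members and lists were chosen with earlier results of these data known, and the enzyme, lectin, transporter and AGAMOUS-like families after the annotation was seen. Where a locus had several probe sets, lists used the brightest. Lists of heat shock proteins, ribosomal proteins and floral or seed markers had no named probe set here. Other lists were covered in part. Of the loci entered, 4 of 39 shoot markers, 3 of 29 root markers, 2 of 22 defence regulators and 10 of 19 defence proteins were measured. So were 1 of 18 clock, 5 of 18 water deficit and cold and 10 of 25 low-oxygen loci. Lists could also take members by symbol or description. In 3 genes of the flavonoid list 1 was lower and 0 higher at 2-fold, and in 13 glutathione transferases 1 was lower and 1 higher. Of all probe sets, 5.44% were lower and 5.94% higher. Deviations from the genotype means correlated at 0.763, 0.466 and 0.558 between arrays numbered 1, 2 and 3. Such deviations sum to 0 over 3 arrays, so the shared shift of replicate 1 alone makes numbers 2 and 3 correlate. The difference of replicate 2 from 3 correlated at -0.025 between genotypes, so numbers 2 and 3 were not taken as pairs. The number of arrays limits the precision, and alternatives were other scalings, priors, filters, array weights, a block on the replicate number, and fits that left out 1 array.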

Additional observations from a re-analysis of the deposited data

Results flagged for a closer look

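The 16 genes given here each had a replicate 1 shift that differed between EBE-XVE and WT by the interaction test (adjusted p under 0.05 in limma). The values are the shift in EBE-XVE minus the shift in WT, in log2 units. The difference was positive for AT4G36430 (2.39), AT2G04460 (3.55), AT2G20870 (3.90), AT4G30170 (3.74), AT4G33720 (3.24), AT4G15390 (3.19), AT5G33370 (2.84) and AT1G17830 (2.61). It was negative for AT1G26380 (-6.73), PRX52 (-5.36), AT4G37290 (-4.30), AT1G22890 (-4.22), BGLU27 (-3.87), AT1G26410 (-3.83), AT3G15450 (-3.64) and STZ (-3.54). AT1G17830 read 5.98 in EBE-XVE replicate 1 and 3.60 in WT replicate 1, beside 4.79 to 5.10 on the other arrays. AT1G17830 was not called without WT replicate 2 (adjusted p = 0.305) or WT replicate 3 (0.275).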

How the results depend on the processing

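Of the counts of calls recomputed under other settings, 104 stayed within 1.5 times the reported count, 23 were higher and 69 lower. With the random replicate block (estimated correlation -0.461 within a replicate number) 6325 probe sets were called higher and 9646 lower, 1482 and 1310 at 2-fold. A negative correlation narrows the SE of the replicate 1 difference. These larger counts thus do not allow for the 2 replicate 1 arrays sharing 1 number. Since the difference of replicate 2 from 3 correlated at -0.025 between genotypes, this block is no evidence of pairing. Counts below are in the order higher over both genotypes, lower over both, higher and lower in WT, higher and lower in EBE-XVE. Without further normalization they were 10355, 3214, 7993, 2736, 8830 and 1994, and at 2-fold over both genotypes 4551 and 366. With median centring they were 2237, 13620, 1769, 13030, 2002 and 12047, with 5438 lower at 2-fold. With dim probe sets left out they were 2506, 2918, 1298, 1990, 1266 and 1421. At 2-fold they were 1351, 1238, 1334, 1315, 1288 and 1242. Probe sets of 1 gene only gave 3045 and 5505 over both genotypes (738 and 764 at 2-fold), 2499 higher in WT and 2656 higher in EBE-XVE. At an adjusted p under 0.01 the higher counts were 3420, 2440 and 2369 and the lower counts in WT and EBE-XVE 4214 and 3383. Without the eBayes trend the lower counts in WT and EBE-XVE were 4592 and 3304.

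Calls for a difference between genotypes, higher and lower in EBE-XVE, were 40 and 72 without the trend, 0 and 0 with dim probe sets left out, 75 and 80 for probe sets of 1 gene, 50 and 101 at an adjusted p under 0.01, and 32 and 84 at 2-fold. Leaving out each array in turn gave 4107 to 5308 higher and 6610 to 8493 lower over both genotypes, with 1193 to 1498 and 1117 to 1312 at 2-fold. It gave 48 to 398 and 79 to 691 for the difference between genotypes, 2558 to 5594 and 4666 to 8907 in WT, and 2914 to 5535 and 4925 to 8067 in EBE-XVE. The shifts within a genotype cannot be estimated without its replicate 1 array.

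The plastid median was -1.737 without further normalization and -2.694 with median centring, and -2.425 to -2.351 as arrays were left out. The defence protein median was 2.923, 1.967 and, with dim probe sets left out, 3.153, and 1.63 to 2.97 as arrays were left out. The cell wall median was 0.074 without further normalization, -0.882 with median centring, 0.112 with dim probe sets left out and -0.034 to -0.029 as arrays were left out. The root marker median was -0.039, -0.996 and, with PYK10 alone left, 2.857, and 0.029 to 0.042 as arrays were left out. Without further normalization the signs that turned included those of EXPA18 (-0.039), GI and its list (0.387), HTB4 (0.001), AGL16 (0.10) and AGL101 (0.091). List medians that turned there were also those of AGAMOUS-like genes (0.031), histones (0.346), UDP-glycosyltransferases (0.299), cytochromes P450 (0.314), glutathione transferases (0.094), carboxypeptidases (0.044), shoot markers (0.377), sugar transporters (0.467) and trichome birefringence-like genes (0.303). With median centring they included those of EXPA18 (-0.996), IAA20 (-0.594), IAA33 (-0.694), GSTU15 (-0.693), AT5G66390 (-0.729), DFR (-0.705), CML37 (-0.737), rpl36 (-0.12), petD (-0.89), the auxin list (-0.702), defence regulators (-0.068), low-oxygen genes (-0.039), calmodulin-like genes (-0.737) and β-glucosidases (-0.410). Some of these small list medians also turned with dim probe sets or single arrays left out. Of the remaining values for single genes over both genotypes 1426 kept their call and direction, 89 lost the call and 6 gained one. The estimate of array weights did not converge. Signal over background limits the dim probe sets, where small differences pass the test, and 6 arrays limit the rest. The causes of these changes were not tested.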
